A study of Mus musculus with 6 samples.

Results

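The 3 Gadd45 genes and 7 further genes of the p53 response (Trp53, Mdm2, Trp53inp1, Ccng1, Phlda3, Sesn1 and Bax) were examined in mouse liver. These 10 genes were found by symbol in GENCODE M21 among the 55536 genes of the deposited files, each with a single identifier, and Cdkn1a, the best known p53 target, was left out of the set. Liver RNA was sequenced from male C57BL/6 mice, an inbred strain, aged 6 weeks at the first dose and not genetically altered per the labels. The PS-MP group (3 libraries) received polystyrene microplastics by mouth at 0.4 mg/day, in 2 dosings a week over 8 weeks. The water group (3 libraries) received water on that schedule. The labels do not state that each library came from a separate mouse, so a p-value here reflects only library-to-library spread, which may be technical. Whole liver was sequenced, so fewer cells of a type and less RNA per cell cannot be told apart in any of the values.

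The p53 protein is a transcription factor that is kept low by its ubiquitin ligase MDM2 and is stabilised by DNA damage and other stress. It then turns on genes that stop the cell cycle, repair DNA or start apoptosis, and it also turns on Mdm2, which closes a feedback loop. The GADD45 proteins are small nuclear stress sensors that bind cell cycle and repair proteins and activate the MAP3K4 branch of the p38 and JNK kinase pathways. Gadd45a is a direct p53 target, whereas Gadd45b and Gadd45g answer mainly to cytokine, NF-kB and growth signals. In mouse liver Gadd45b is induced during regeneration and by activators of the xenobiotic receptor CAR.

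Values are FPKM, read numbers scaled by the authors to exon length and library total. Fold changes are PS-MP over water on FPKM + 0.5, from limma-trend fitted to all 13299 genes that passed a low-count rule, with Benjamini-Hochberg adjustment over all of them and a threshold of 0.05. The libraries held 13082210 to 15938284 reads in PS-MP and 14520402 to 16948343 in water. Hepatocyte markers (5 of 5 detected, Alb and Ttr among them) summed to 32947 to 40124 FPKM in PS-MP and 39791 to 42853 FPKM in water. Of these 5, only Ttr lay lower in every PS-MP library than in any water library, where 8.12% of all tested genes did so. PS-MP replicate 3 stood apart through brain transcripts. All 5 forebrain neuron markers lay higher in every PS-MP library than in any water library, with summed levels of 4.98, 2.69 and 31.8 FPKM in PS-MP replicates 1, 2 and 3 against 1.42 to 1.58 FPKM in water. Of 4 oligodendrocyte markers, 3 did the same, at summed levels of 0.569 to 6.07 FPKM in PS-MP and 0.300 to 0.457 FPKM in water, where Mobp and Mog had no reads. Of 3 brown fat markers, Ucp1 had 0, 0 and 68 reads in PS-MP and 139, 0 and 15 reads in water. Cidea had 0, 0 and 17 reads in PS-MP and 47, 0 and 19 reads in water. Elovl3 had reads throughout, with 2276, 1986 and 2067 in PS-MP and 4882, 4413 and 2842 in water. It did not follow Ucp1 and Cidea, being high also in the libraries where both had 0 reads. The part of these transcripts in the results below was not tested; the fold changes of the 9 tested genes of the set are therefore also given without PS-MP replicate 3 where that moves them by over 1.5 times.

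No gene of the set passed the test, although Gadd45a lay higher in every PS-MP library and Gadd45b and Trp53 lower in every one. With limma-trend 0 of the 9 tested genes changed, where 0.489% of all tested genes did (0.241% higher and 0.248% lower in PS-MP), and with limma-voom on reads recovered from the FPKM values 0 changed as well, where 1.0% of all tested genes did. Phlda3 was too low to be tested. An unadjusted p under 0.05 was reached by 4 of the 9 with either tool: Gadd45a, Gadd45b, Trp53 and Trp53inp1. Over all tested genes 13.1% reached it with limma-trend. The PS-MP and water values did not overlap for 3 of the 9, with 1 gene higher in PS-MP and 2 lower. Over all tested genes 19.2% did not overlap, 11.1% being higher in PS-MP and 8.12% lower. The median log2 fold change of the 9 was -0.22, beside 0.01 over all tested genes, and 7 of the 9 were negative, as were 46.3% of all tested genes. Without PS-MP replicate 3 the median of the 9 was -0.05, without water replicate 1 it was -0.10, and without water replicate 3 it was -0.13.

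**Figure D1:**
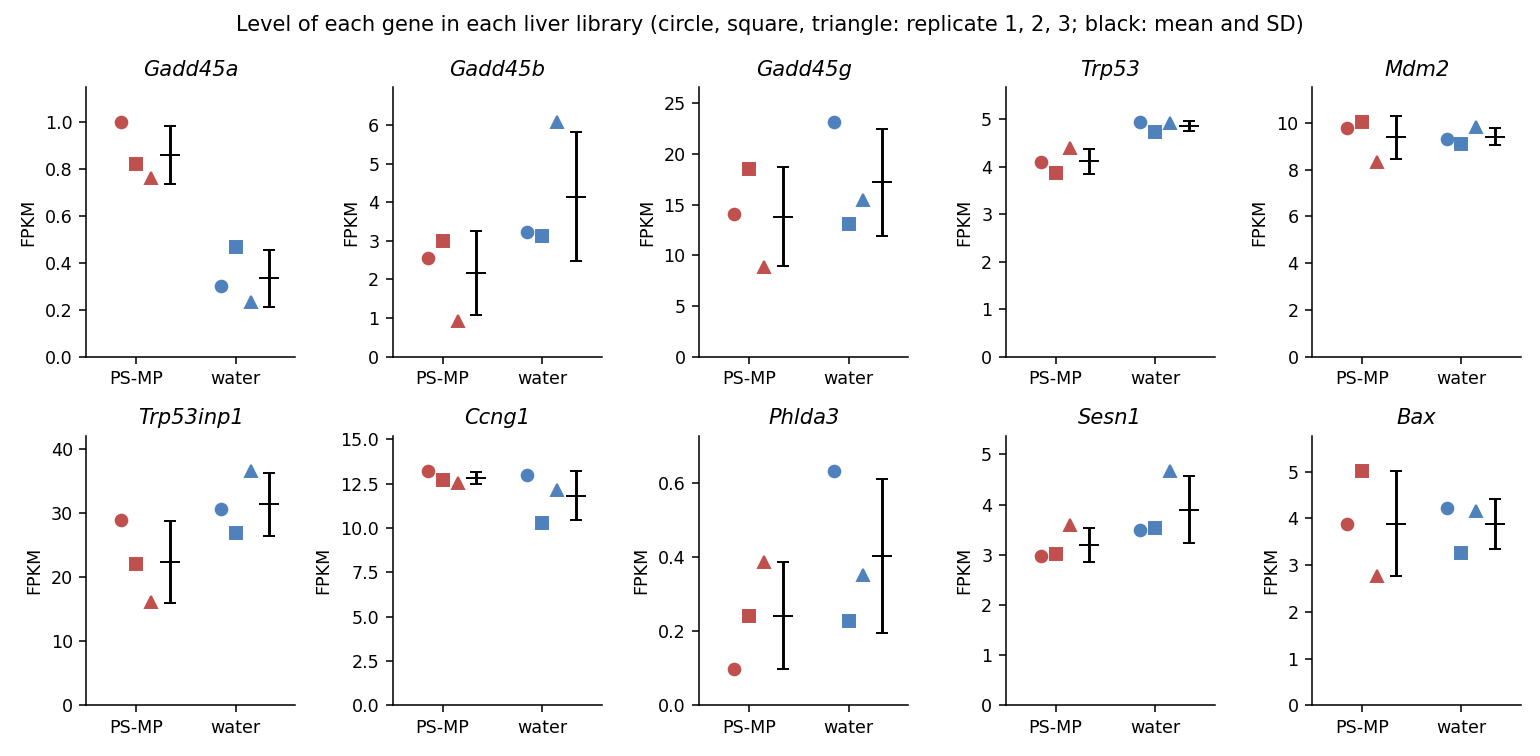
FPKM (vertical axes, each from 0) of the 10 genes in the PS-MP (red, left) and water (blue, right) libraries; each point is a library and the black marks are the mean and SD of 3. Gadd45a lies at 0.760 to 0.997 FPKM in PS-MP and 0.234 to 0.468 FPKM in water, with no overlap, while Mdm2 lies at 8.33 to 10.02 FPKM in PS-MP and 9.10 to 9.82 FPKM in water.

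Per length, Trp53inp1 was the most abundant of the 10 genes, with a median of 27.8 FPKM over the 6 libraries and a range of 16.1 to 36.5. It lay above Gadd45g in each of the 6 libraries, although their ranges overlapped. Gadd45g (median 14.8 FPKM) and Ccng1 (12.6 FPKM) overlapped, with Gadd45g higher in 5 of 6 libraries. Ccng1 and Mdm2 (median 9.55 FPKM) had separate ranges, and so did Mdm2 and Trp53 (4.57 FPKM). Trp53, Bax (4.02 FPKM), Sesn1 (3.52 FPKM) and Gadd45b (3.06 FPKM) overlapped along the order, and Bax lay above Sesn1 in only 3 of 6 libraries. Gadd45a (0.614 FPKM) and Phlda3 (0.297 FPKM) were the lowest and overlapped with each other.

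Gadd45a encodes the DNA damage-inducible member that gave the family its name. It lies on chromosome 6, 67035096 to 67037457, on the minus strand. Windows of 300 bases around the RefSeq start sites of the 3 Gadd45 genes are shown, because their starts carry different motifs. A link between motifs and fold changes was not tested. Capitals mark matches on either strand to the octamer ATTTGCAT (bound by POU factors), CCAAT (bound by NF-Y), TATAAA, the E-box CACGTG (bound by helix-loop-helix factors) and the p53 half-site, and no 2 matches overlap. The windows are GRCm38.p6 chr6:67037358-67037657 on the minus strand, chr10:80929841-80930140 on the plus strand and chr13:51846425-51846724 on the plus strand.
Gadd45a: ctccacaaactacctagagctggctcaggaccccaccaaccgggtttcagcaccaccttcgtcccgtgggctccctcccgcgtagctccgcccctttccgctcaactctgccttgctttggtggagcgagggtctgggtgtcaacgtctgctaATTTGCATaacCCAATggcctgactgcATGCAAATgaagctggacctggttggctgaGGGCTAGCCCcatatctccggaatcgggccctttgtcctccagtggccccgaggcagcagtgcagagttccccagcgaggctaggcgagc
Gadd45b: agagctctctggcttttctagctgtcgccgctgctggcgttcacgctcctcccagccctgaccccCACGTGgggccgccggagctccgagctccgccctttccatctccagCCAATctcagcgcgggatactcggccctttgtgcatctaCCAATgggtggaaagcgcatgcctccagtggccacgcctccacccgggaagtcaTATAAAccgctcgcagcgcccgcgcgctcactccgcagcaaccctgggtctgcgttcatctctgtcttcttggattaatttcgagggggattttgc
Gadd45g: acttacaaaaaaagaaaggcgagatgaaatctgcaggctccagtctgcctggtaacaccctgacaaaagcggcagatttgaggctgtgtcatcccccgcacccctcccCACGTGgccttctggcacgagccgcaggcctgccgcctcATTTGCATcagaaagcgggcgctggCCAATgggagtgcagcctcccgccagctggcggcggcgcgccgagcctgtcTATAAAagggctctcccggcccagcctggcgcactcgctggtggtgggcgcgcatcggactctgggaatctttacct

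The Gadd45a window held 2 octamers around a CCAAT box and 1 p53 half-site, and no TATAAA or CACGTG. The windows of Gadd45b and Gadd45g each held 1 CACGTG and 1 TATAAA, with 2 CCAAT boxes in Gadd45b, and 1 CCAAT box and 1 octamer in Gadd45g. Among 32851 mouse windows of the same length, 1.74% held the octamer, 37.4% CCAAT, 13.6% TATAAA, 7.15% CACGTG and 8.36% a p53 half-site. RefSeq gave 10 windows for 9 of the 10 genes (all but Trp53inp1), 2 of them for Sesn1. A p53 half-site lay in 6 of these windows, of Gadd45a, Trp53, Mdm2, Ccng1, Sesn1 and Bax. A match is a run of letters and not a measured binding site.

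Gadd45a had 0.997, 0.818 and 0.760 FPKM in PS-MP replicates 1, 2 and 3, against 0.299, 0.468 and 0.234 FPKM in water replicates 1, 2 and 3. The lowest PS-MP library lay above the highest water library. The group means were 0.858 ± 0.123 FPKM in PS-MP and 0.334 ± 0.121 FPKM in water (SD, n = 3 each), a ratio of 2.57. On FPKM + 0.5 the fold change was 1.64 (95% interval 1.32 to 2.03), with an unadjusted limma-trend p of 0.000775 and an adjusted p of 0.0925, which misses the threshold. It ranked 111th by p among all tested genes. Gadd45a met the low-count rule through its PS-MP libraries, since in water only replicate 2 reached 0.664 CPM. It was thus tested because of the group where it lay higher, which its p and rank do not take into account. With no low-count rule its limma-trend adjusted p was 0.325. The pseudocount compresses so low a gene, and limma-voom gave a log2 fold change of 1.33 where limma-trend gave 0.71, with an adjusted p of 0.136. These levels rest on 23, 23 and 20 reads in PS-MP and 8, 14 and 6 reads in water. Exact Poisson intervals, which cover counting error only, were 0.519 to 1.23 FPKM in PS-MP replicate 2 and 0.256 to 0.786 FPKM in water replicate 2, so the intervals of these 2 libraries overlap. That of PS-MP replicate 3, 0.464 to 1.17 FPKM, overlapped those of all water libraries. Separate intervals were found only for PS-MP replicate 1 against water replicates 1 and 3, and PS-MP replicate 2 against water replicate 3. A noncoding gene on the opposite strand, E230016M11Rik, overlaps 19.1% of the Gadd45a exon bases and had 14, 22 and 36 reads in PS-MP and 19, 11 and 15 reads in water. No source used here says whether counting used strand, and reads of that overlap may belong to either gene. Without PS-MP replicate 3 the log2 fold change was 0.76.

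Gadd45b (chromosome 10, 80930073 to 80932204), an NF-kB-inducible gene that protects hepatocytes from JNK-driven death, had 2.55, 3.001 and 0.928 FPKM in PS-MP replicates 1, 2 and 3. Its water values were 3.23, 3.12 and 6.07 FPKM in replicates 1, 2 and 3. The groups did not overlap, though PS-MP replicate 2 lay close under water replicate 2, and each group had 1 library far from its other 2. The mean was 2.16 ± 1.09 FPKM in PS-MP and 4.14 ± 1.67 FPKM in water (SD, n = 3 each). The log2 fold change was -0.85 (95% interval -1.68 to -0.02; limma-trend adjusted p = 0.375). Without PS-MP replicate 3 it was -0.45.

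Gadd45g (chromosome 13, 51846678 to 51848468), a cytokine-inducible member known as a growth suppressor, had 14.1, 18.6 and 8.86 FPKM in PS-MP replicates 1, 2 and 3. In water it had 23.1, 13.1 and 15.4 FPKM. The groups overlapped, and the log2 fold change of -0.33 (95% interval -0.97 to 0.32; limma-trend adjusted p = 0.665) was smaller than the spread between libraries of a group, whose SD on the log2 scale was 0.47. The log2 fold change was -0.05 without PS-MP replicate 3 and -0.10 without water replicate 1, but -0.56 without PS-MP replicate 2 and -0.50 without water replicate 2. Gadd45g supplied most of the family's transcript: 79.9%, 82.9% and 84.0% of the summed Gadd45 FPKM in PS-MP replicates 1, 2 and 3, and 86.8%, 78.5% and 71.0% in water. Shares rest on the same reads as the levels and are no separate result. The share of Gadd45a was 3.66% to 7.21% in PS-MP and 1.08% to 2.81% in water, without overlap. That of Gadd45b was 8.80% to 14.5% in PS-MP and 12.1% to 27.9% in water, with overlap. Summed over the family, levels were 17.6, 22.4 and 10.5 FPKM in PS-MP and 26.7, 16.7 and 21.7 FPKM in water, so the groups overlapped. The 3 genes share no run of 50 bases with each other, so their reads could not be mixed up by identical sequence of that length.

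**Figure D2:**
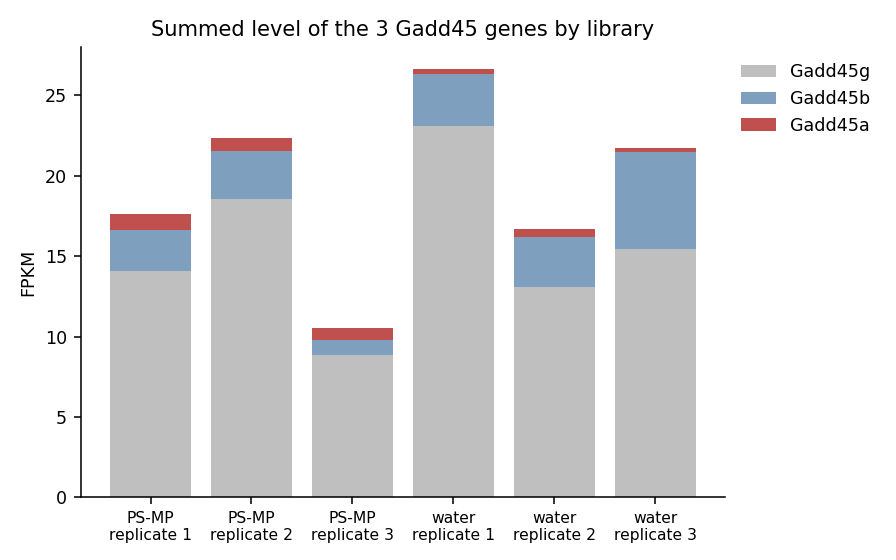
Summed FPKM of Gadd45g (grey), Gadd45b (blue) and Gadd45a (red) in each library (bars, from 0), PS-MP left of water. Gadd45g takes 79.9% to 84.0% of the bar in PS-MP and 71.0% to 86.8% in water, and the Gadd45a part is thicker in every PS-MP library.

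Of p53 and the genes that control it, Trp53 itself lay lower in PS-MP by a small and even margin, and Mdm2 had nearly equal means. Trp53 (chromosome 11, 69580359 to 69591873) had 4.10, 3.86 and 4.39 FPKM in PS-MP replicates 1, 2 and 3, and 4.93, 4.74 and 4.92 FPKM in water. All PS-MP values lay under all water values. The means were 4.12 ± 0.265 FPKM in PS-MP and 4.86 ± 0.107 FPKM in water (SD, n = 3 each), a fold change of 0.86 (95% interval 0.75 to 0.98; limma-trend unadjusted p = 0.0290, adjusted p = 0.319). It varied little within a group: 9.21% of tested genes had a smaller within-group SD on this scale. The protein is governed mostly by its stability, which RNA does not show. Of the 50-base runs in Trp53 transcripts, 3.64% recur in the pseudogene Trp53-ps.

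Mdm2 (chromosome 10, 117688875 to 117710758), the ligase that degrades p53 and is itself a p53 target, had 9.77, 10.02 and 8.33 FPKM in PS-MP, against 9.33, 9.10 and 9.82 FPKM in water. The groups overlapped fully at 0.99-fold (95% interval 0.86 to 1.14; limma-trend adjusted p = 0.977). That interval reflects only library-to-library spread, and equality was not tested. The log2 fold change of Mdm2 was -0.01, and 0.07 without PS-MP replicate 3. Ccng1 (chromosome 11, 40748552 to 40755311), which encodes cyclin G1, is a p53 target whose protein recruits a phosphatase to MDM2. It had 13.2, 12.7 and 12.5 FPKM in PS-MP and 13.0, 10.3 and 12.2 FPKM in water, at 1.09-fold (95% interval 0.94 to 1.26; limma-trend adjusted p = 0.618). Its log2 fold change of 0.12 was 0.03 without water replicate 2 and 0.19 without water replicate 1. Mdm2 and Ccng1 had the narrowest intervals of the p53 targets in the set.

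Trp53inp1 (chromosome 4, 11156431 to 11174379) encodes a p53-inducible nuclear protein that helps p53 act on death genes and also takes part in autophagy. Its levels were 28.8, 22.0 and 16.1 FPKM in PS-MP replicates 1, 2 and 3, and 30.6, 26.8 and 36.5 FPKM in water. PS-MP replicate 1 lay inside the water range and the other 2 under it. The log2 fold change was -0.51 (95% interval -0.97 to -0.04; limma-trend unadjusted p = 0.0355, adjusted p = 0.343), and -0.30 without PS-MP replicate 3. With 1558 to 3435 reads in a library, counting error was small beside the spread between libraries.

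Among the effectors, Sesn1 (chromosome 10, 41809935 to 41908424) encodes sestrin 1, which restrains mTORC1 when amino acids are short. It had 2.98, 3.01 and 3.59 FPKM in PS-MP and 3.49, 3.54 and 4.67 FPKM in water. PS-MP replicate 3 lay above water replicates 1 and 2, so the groups overlapped, and the log2 fold change was -0.25 (95% interval -0.54 to 0.05; limma-trend adjusted p = 0.464). Without water replicate 3 it was -0.13. Bax (chromosome 7, 45461697 to 45466898), the pore-forming protein of mitochondrial apoptosis, had 3.88, 5.02 and 2.76 FPKM in PS-MP, against 4.22, 3.26 and 4.15 FPKM in water. The means were 3.89 ± 1.13 FPKM in PS-MP and 3.88 ± 0.537 FPKM in water (SD, n = 3 each), and the interval of the fold change, 0.73 to 1.34, leaves room for a moderate difference either way (limma-trend adjusted p = 0.976). The log2 fold change of Bax was -0.02, and 0.18 without PS-MP replicate 3. A protein-coding gene on the same strand, Gm45808, overlaps 12.2% of the Bax exon bases. It had 2, 0 and 0 reads in PS-MP and 0, 1 and 0 reads in water, and reads of that overlap may belong to either gene. Phlda3 (chromosome 1, 135766119 to 135769136), a p53 target that blocks AKT at the membrane, had 2, 6 and 9 reads in PS-MP and 15, 6 and 8 reads in water, or 0.0981 to 0.387 FPKM in PS-MP and 0.227 to 0.634 FPKM in water. The groups overlapped, and Phlda3 was too low at this depth to be tested under the low-count rule.

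**Figure D3:**
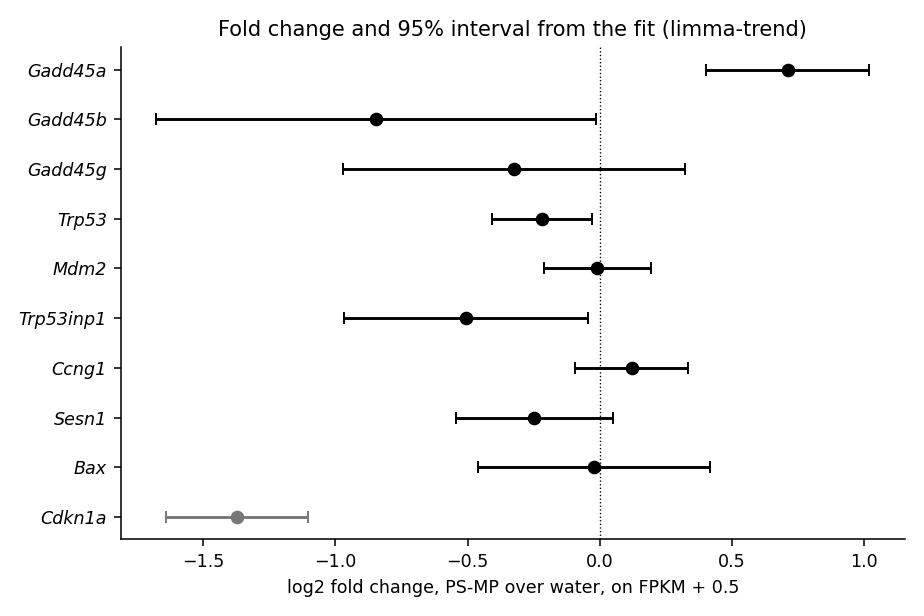
Log2 fold change (horizontal axis, PS-MP over water on FPKM + 0.5) with its 95% interval for the 9 tested genes (black) and for Cdkn1a (grey). Mdm2 sits at -0.01 with a narrow interval, Gadd45a at 0.71 and Gadd45b at -0.85 with a wide one, and Cdkn1a at -1.37.

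Spread within a group differed widely among the genes. Gadd45b had a larger within-group SD on the log2 scale than 98.9% of tested genes, and Gadd45g than 97.5%. Trp53inp1 exceeded 93.4% and Bax 91.4%, while Mdm2 exceeded 33.5%. PS-MP replicate 3 was the lowest of the 6 libraries for Gadd45b, Gadd45g, Mdm2, Trp53inp1 and Bax. It was the highest PS-MP library for Trp53 (4.39 FPKM), Sesn1 (3.59 FPKM) and Phlda3 (0.387 FPKM). How many of all tested genes were lowest in it was not counted. Water replicate 3 was the highest for Gadd45b, Sesn1 and Trp53inp1. When each library was left out in turn, Gadd45a stayed between 0.62 and 0.82 in log2 fold change with adjusted p from 0.0787 to 0.299. Gadd45b ran from -1.10 to -0.45, and Trp53 from -0.26 to -0.18. That Gadd45a, Gadd45b and Trp53 keep their sign there is fixed, since their groups do not overlap. Mdm2 and Bax changed sign, between -0.06 and 0.07 and between -0.20 and 0.18.

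**Figure D4:**
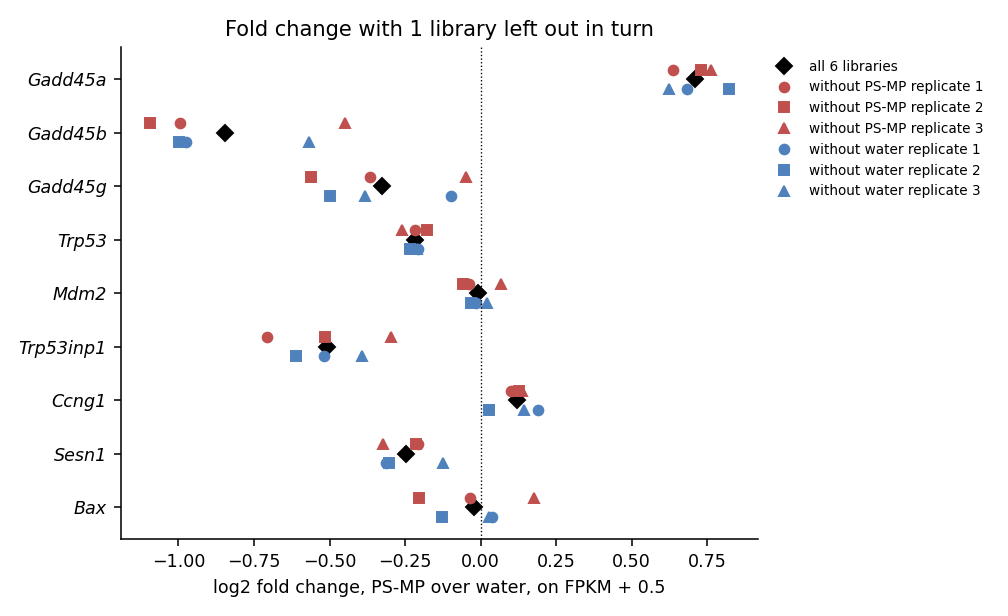
Log2 fold change (horizontal axis, PS-MP over water on FPKM + 0.5) of the 9 tested genes with all 6 libraries (black diamond) and with 1 left out (red: a PS-MP library; blue: a water library). Gadd45g moves from -0.33 to -0.05 and Trp53inp1 from -0.51 to -0.30 without PS-MP replicate 3 (red triangle), whereas Gadd45a stays between 0.62 and 0.82.

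Cdkn1a, the p53 target outside the set, did fall. This inhibitor of cyclin-dependent kinases had 4.28, 3.81 and 4.83 FPKM in PS-MP and 10.3, 12.8 and 12.8 FPKM in water, a log2 fold change of -1.37 (95% interval -1.64 to -1.11; limma-trend adjusted p = 0.0093). Its adjusted p was over the threshold without PS-MP replicate 2, without water replicate 3 and with no low-count rule, at up to 0.106. The interval of Gadd45b covered that of Cdkn1a, and those of the other tested genes of the set lay wholly above it.

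The other listed p53 targets lay on both sides of 0. Of 30 listed genes 28 were tested, and 1, Cdkn1a, changed, where 0.489% of all tested genes did. The median log2 fold change of the list was 0.02, with 16 positive and 12 negative. Unadjusted p was under 0.05 for 10 of the 28, of which 6 lay higher and 4 lower in PS-MP. Over all tested genes 13.1% reached it with limma-trend. Bbc3, which encodes the death-inducing protein PUMA, averaged 1.64 ± 0.129 FPKM in PS-MP and 2.32 ± 0.12 FPKM in water (SD, n = 3 each; log2 fold change -0.40, limma-trend adjusted p = 0.141). Ddit4, an mTORC1 inhibitor also induced by low oxygen and glucocorticoids, averaged 3.98 ± 1.45 FPKM in PS-MP and 6.68 ± 0.140 FPKM in water (SD, n = 3 each; -0.73, limma-trend adjusted p = 0.220). In the other direction, Btg2, an antiproliferative gene, had a log2 fold change of 0.46 (limma-trend adjusted p = 0.198) and Plk3, a stress-responsive kinase, of 0.83 (limma-trend adjusted p = 0.230). Without PS-MP replicate 1 a second gene, Gtse1, which encodes a p53-binding protein of dividing cells, passed the test. With all libraries it did not (log2 fold change 0.78, limma-trend adjusted p = 0.269). Gtse1 was low, at 0.279, 1.17 and 0.953 FPKM in PS-MP replicates 1, 2 and 3 and 0.194 to 0.240 FPKM in water. The library left out was thus the PS-MP library nearest to water.

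None of the other lists held a gene that passed with limma-trend or limma-voom. Their counts of unadjusted p under 0.05 stand beside 13.1% of all tested genes with limma-trend. Of 21 tested genes that sense DNA damage or control p53, 2 had an unadjusted p under 0.05, and the median was 0.01. They were Hipk2, a kinase that phosphorylates p53 (-0.24, limma-trend adjusted p = 0.274), and Rchy1, a ligase for p53 (0.22, adjusted p = 0.326). Sirt1 (0.20) and Atr (0.18), a deacetylase of p53 and a damage kinase, came next. Among 19 tested partners and kinases of the GADD45 proteins, 3 had an unadjusted p under 0.05, all higher in PS-MP, and the median was 0.06. They were Mapk14, which encodes p38 alpha, at 24.4 ± 1.07 FPKM in PS-MP and 20.3 ± 1.90 FPKM in water (SD, n = 3 each; log2 fold change 0.26, limma-trend adjusted p = 0.246), the p38 activator Map2k6 (0.77, adjusted p = 0.267) and Ing1 (0.31, adjusted p = 0.326), which recruits Gadd45a to chromatin. Tet3, an enzyme of DNA demethylation, had 0.22.

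The same share, 13.1% of all tested genes with an unadjusted limma-trend p under 0.05, applies to the lists that follow. Around Bax, 13 genes of the BCL-2 family were tested, with a median of 0.07 and 3 unadjusted p under 0.05: Bmf (0.72), Bcl2l11 (0.36) and Bbc3 (-0.40), all killers of the BH3-only class, the first 2 higher in PS-MP and the third lower. Bmf had the smallest limma-trend adjusted p of them, 0.130, at 1.92 ± 0.363 FPKM in PS-MP and 0.974 ± 0.253 FPKM in water (SD, n = 3 each). Bok, a BAX relative, had -0.25. Around Sesn1, 22 genes of the sestrin, GATOR and mTORC1 system were tested, with a median of 0.04 and 2 unadjusted p under 0.05. These were the arginine sensor Castor1 (0.59, limma-trend adjusted p = 0.274) and Sesn2 (0.27, adjusted p = 0.312), a sestrin higher in every PS-MP library at 4.18, 4.73 and 4.30 FPKM in PS-MP and 4.02, 3.34 and 3.37 FPKM in water. Sesn3 lay the other way at -0.21 (limma-trend adjusted p = 0.390), also without overlap, and Lamtor1, an mTORC1 anchor on lysosomes, had -0.14. Of these 22 genes, 3 lay higher and 2 lower in PS-MP without overlap, where 19.2% of all tested genes did not overlap. Of 14 tested immediate early genes, which answer within minutes to growth signals and handling, 4 had an unadjusted p under 0.05 and the median was 0.17. Nr4a1 (0.50) and Junb (0.32) lay higher in PS-MP, and Klf4 (-0.39) and Egr1 (-0.82) lower.

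**Figure D5:**
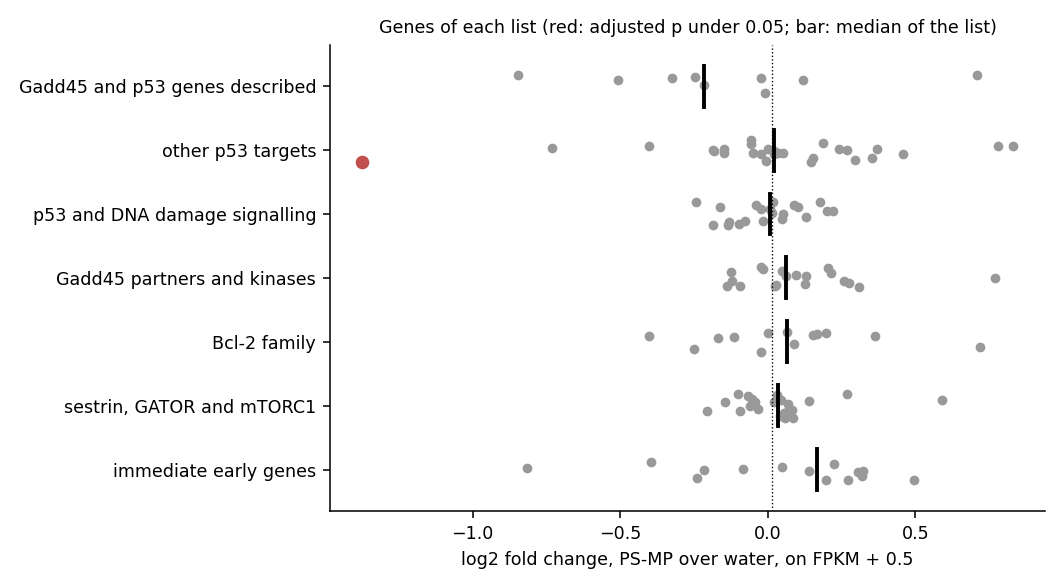
Log2 fold change (horizontal axis, PS-MP over water on FPKM + 0.5) of each tested gene of the set and of the 6 lists, with the median of each as a black bar and that of all tested genes, 0.01, as a dotted line; vertical scatter within a row has no meaning. Cdkn1a at -1.37 is the only gene in red, which marks an adjusted p under 0.05.

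Likeness of pattern was measured as Pearson's r of log2(FPKM + 0.5) over the 6 libraries, which share their groups and totals, and the 3 closest genes are given with no test. With only 6 libraries and all tested genes searched, an r this high can arise by selection alone. The r values therefore only describe the pattern. Gadd45a was most like Emc1 (r = 0.995), a subunit of the membrane protein insertion complex of the endoplasmic reticulum, then Slc25a37 (0.989), the mitochondrial iron importer mitoferrin 1, and the pseudogene Obox4-ps1 (0.987). Slc25a37 had 8.89, 7.57 and 6.89 FPKM in PS-MP and 4.90, 6.06 and 4.58 FPKM in water. Gadd45b was most like Zc3h4 (0.993), Btf3 (0.991) and Ddit3 (0.991). Ddit3, also called Gadd153 or CHOP, is the stress transcription factor of the unfolded protein response, and had 3.57, 3.88 and 2.66 FPKM in PS-MP and 4.11, 4.03 and 4.82 FPKM in water. Gadd45g was most like Fn1 (0.988), the plasma fibronectin made by hepatocytes, Ube2r2 (0.987) and Dpp8 (0.986). The log2 fold changes of these 9 genes ran from -0.33 to 0.66, and none passed the test.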

How the data were processed

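Liver RNA libraries, 3 of the PS-MP group and 3 of the water group, were grouped by their titles. The deposited values are FPKM per gene, computed by the authors from mapped reads. Per the submitters' processing notes, CASAVA, FastQC, MultiQC, Trimmomatic 0.38, HISAT2 2.1.0, featureCounts 1.6.0 and DESeq2 1.22.1 were named, with the human build GRCh38, although all 55536 identifiers are those of mouse GENCODE M21 (GRCm38), used here for symbols, coordinates and exon lengths. Promoter sequences are RefSeq's on GRCm38.p6.

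FPKM times merged exon length gave whole reads within 0.001 for 100% of values above 0. Genes needed 0.664 CPM, equal to 10 reads at the median total, in 3 libraries and 15 reads in all. limma-trend (limma 3.58.1, R 4.3.3) was fitted to log2(FPKM + 0.5) with group as the only term; it was tested on simulated data. Named genes were the set and list genes that passed plus up to 4 others with the smallest p per list. The 3 closest patterns per Gadd45 gene were also named (predicted gene models left out). Gtse1, Sesn2 per library, Ttr and the brown fat markers were chosen after their values were seen. The genes and lists were chosen with earlier results of these data known. Alternatives were limma-voom, TMM and median-of-ratios scaling, pseudocounts of 0.1 and 1, other low-count rules, robust empirical Bayes, a replicate block and each library left out.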

Additional observations from a re-analysis of the deposited data

How the results depend on the processing

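In all 15 alternatives 0 genes of the set changed with limma, and 1 to 4 had an unadjusted p under 0.05. Over all of them the adjusted p of Gadd45a ran from 0.0769 to 0.325, and its log2 fold change from 0.48 with a pseudocount of 1 to 1.33 with limma-voom. The count of all changed genes, 65, was 133 with limma-voom, 0 with no low-count rule (2064 unadjusted, limma-trend) and 0 to 36 with 1 library left out. The count of listed genes, 1, was 0 with no low-count rule and 0 to 2 with 1 library left out. It was 0 without PS-MP replicate 2 or water replicate 3, and 2 without PS-MP replicate 1. Mdm2 and Bax reversed only with a library left out: Mdm2 ran from -0.057 to 0.069, turning positive without PS-MP replicate 3 or water replicate 3. Bax ran from -0.20 to 0.18, turning positive without PS-MP replicate 3 or water replicates 1 or 3. The cause was not tested. Same-numbered libraries did not deviate together (r from -0.04 to 0.05 over 3 pairs), and other pairs across the groups ran from -0.05 to 0.07. This check showed no shared deviation but cannot exclude that libraries were paired. With the replicate block 23 genes changed, 0 of the set and 1 listed. Depth limits Gadd45a and Phlda3, with 6 to 23 and 2 to 15 reads in a library.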
